A study of Mus musculus with 2 samples.

Results

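Interferon ligands, interferon receptors and the cytosolic DNA sensing pair were followed across the cell types of a healing mouse skin wound. The genes were taken by symbol from a list of 9, and 8 of them were found among the 33696 features of the deposited tables. These were the ligands Ifnb1 and Ifng, the type I receptor chains Ifnar1 and Ifnar2, the interferon gamma receptor chains Ifngr1 and Ifngr2, and the DNA sensor Cgas with its adaptor Sting1. The remaining symbol, Tmem173, is an older name of Sting1 and has no row of its own. The measurements asked which cells carried transcripts of the ligands, which carried those of the receptors and sensors, and how these levels compared between wounds of young and aged animals.

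Single-cell RNA sequencing was done on cells of 10 mm full-thickness dorsal skin wounds in wild-type male C57BL/6 mice, an inbred strain, and harvested at day 6. There was 1 library of young mice aged 2 months and 1 library of aged mice aged 24 months, each made from several animals pooled. Both groups shared the wound, the day, the sex and the genotype, and no unwounded skin was analysed here. Because each age is represented by a lone library, the ages were not tested against each other, and age, the pooled animals and the preparation of the library cannot be told apart. Every interval below is a 95% interval that covers counting error only.

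Interferons are secreted proteins that switch on antiviral and inflammatory genes in the cells that bind them. Interferon beta, the product of Ifnb1, is a type I interferon that many cell types can make after sensing foreign or misplaced nucleic acid, and the receptor of IFNAR1 and IFNAR2 chains is carried by most nucleated cells. Interferon gamma, the product of Ifng, comes mainly from T cells and natural killer (NK) cells, and its receptor needs IFNGR1, which binds the ligand, and IFNGR2, which completes the signal through the kinase JAK2. CGAS binds double-stranded DNA in the cytosol and makes a cyclic dinucleotide that activates STING1, which leads to Ifnb1 transcription. In skin, macrophages, fibroblasts and endothelial cells can all respond to both kinds of interferon.

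In GENCODE M21 coordinates on the GRCm38 build, Ifnb1 lies at chr4:88522025-88522774 on the minus strand and Ifng at chr10:118441046-118445892. Ifngr1 lies on the same chromosome as Ifng at chr10:19591949-19610229, and Cgas at chr9:78430526-78443237 on the minus strand. Ifnar2, Ifnar1 and Ifngr2 sit together on chromosome 16, with Il10rb, the shared chain of the interferon lambda and interleukin 10 receptors, between Ifnar2 and Ifnar1. The 4 genes span 193 kb. The RefSeq promoter table held 7 of the 8 genes found, on GRCm38.p6, as 250 bases before and 50 after the annotated start. Stretches upstream of both ligands are shown because their transcripts were held by few cells, and those of both interferon gamma receptor chains because their levels parted in lymphocytes. Each is written 5′ to 3′ on the strand of its gene, with motif matches in capitals.
Ifnb1, chr4:88522865-88522964, minus strand: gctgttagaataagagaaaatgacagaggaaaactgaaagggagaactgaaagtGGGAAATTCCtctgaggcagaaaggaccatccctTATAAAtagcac
Ifng, chr10:118440916-118441035, plus strand: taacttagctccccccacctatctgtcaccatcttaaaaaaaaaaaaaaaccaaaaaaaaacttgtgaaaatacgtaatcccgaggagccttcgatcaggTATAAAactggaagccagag
Ifngr1, chr10:19591749-19591948, plus strand: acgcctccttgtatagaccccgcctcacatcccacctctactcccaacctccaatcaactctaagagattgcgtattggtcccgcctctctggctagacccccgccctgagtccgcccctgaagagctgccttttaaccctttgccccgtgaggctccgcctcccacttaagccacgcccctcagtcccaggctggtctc
Ifngr2, chr16:91546859-91547058, plus strand: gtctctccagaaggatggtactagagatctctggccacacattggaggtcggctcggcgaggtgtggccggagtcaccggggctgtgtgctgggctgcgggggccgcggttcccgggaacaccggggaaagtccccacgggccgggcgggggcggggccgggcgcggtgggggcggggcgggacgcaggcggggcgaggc

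The capitals mark GGGAAATTCC, an NF-kB site whose letters were read from the Ifnb1 window itself, and TATAAA, the TATA box. Both strands were searched in the whole 300-base windows, and no matches overlapped. GGGAAATTCC was found in none of the other 6 genes and in 0.110% of 32851 promoters. TATAAA was found in the windows of both ligands and in none of the other 5 genes, against 13.6% of all promoters. The stretch shown for Ifngr2 held 75.0% G and C with 22 CpG pairs, that for Ifngr1 60.5% with 9, that for Ifng 38.3% with 3, and that for Ifnb1 41.0% with none. A match describes the letters in these windows and says nothing of binding.

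Transcripts were counted by unique molecular identifiers (UMIs), each standing for 1 captured transcript: 111810068 over 4932 barcodes in the young library and 107865898 over 4379 in the aged. A filter on depth and mitochondrial share kept 4661 young cells with a median of 15566 UMIs and 4210 aged cells with a median of 13777, and 3 barcodes occurred in both libraries. Each cell was placed in the class whose marker genes it expressed most strongly. Macrophage/monocyte-like cells numbered 919 young and 1287 aged, neutrophil-like cells 1350 and 886, fibroblast-like cells 1594 and 1487, and endothelial-like cells 74 and 52. T cell-like cells numbered 320 and 32, NK cell-like cells 19 and 12, and dendritic cell-like cells 31 and 61. The class of a cell rests on a score, and at most 4 cells of any class and library lay near its limit. Among the 7, the lowest median of a class's own score was 0.650, in aged NK cell-like cells, and in these 7 classes the highest median score of another class was 0.274, that of T cell markers in the same cells. Under this gate 5.30% of young and 8.62% of aged cells had no class, with 20 and 12 cells near the limit. Median depth differed widely, from 4490 UMIs in aged neutrophil-like to 49777 in aged fibroblast-like cells, so levels are given as CPM, the UMIs of the gene per 1000000 UMIs of the class.

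Ifnb1 transcripts were concentrated in macrophage/monocyte-like cells, and their level there was lower in the aged library. The young library held 597 Ifnb1 UMIs in 64 of 919 such cells, at 35.0 CPM (32.3 to 37.9). The aged library held 156 UMIs in 28 of 1287 cells, at 8.38 CPM (7.12 to 9.80). The aged/young ratio was 0.239 (0.199 to 0.286). This class accounted for 96.8% of the young library's Ifnb1 UMIs and 69.3% of the aged library's. No Ifnb1 UMI was found in T cell-like, NK cell-like or dendritic cell-like cells of either library. Those classes are small: a count of 0 allowed up to 1.13 CPM in the 320 young T cell-like cells and up to 17.2 CPM in the 12 aged NK cell-like cells.

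A few cells carried most of the Ifnb1. The 5 highest of the 64 young macrophage/monocyte-like cells held 33.7% of their UMIs and the 5 highest of the 28 aged cells 50.6%. The highest young cell had 48 UMIs and the highest aged cell 25. In young cells with any Ifnb1 the median was 6 UMIs and 36 had 5 or more, and in aged ones the median was 4 and 12 had 5 or more. With each cell thinned to 2000 UMIs, a step that left out 236 young and 291 aged cells of all classes, 3.88% of young macrophage/monocyte-like cells (2.72 to 5.36) and 1.13% of aged ones (0.621 to 1.89) kept an Ifnb1 UMI. The unthinned shares were 6.96% and 2.18%. Neutrophil-like cells gave the comparison for stray RNA: 2 of 1350 young cells, or 0.148%, and 0 of 886 aged cells had an Ifnb1 UMI at median depths of 5739 and 4490 UMIs, against 16525 and 12781 in macrophage/monocyte-like cells. Thinned, 0.0782% of young neutrophil-like cells and 0 of 825 aged ones did.

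**Figure D1:**
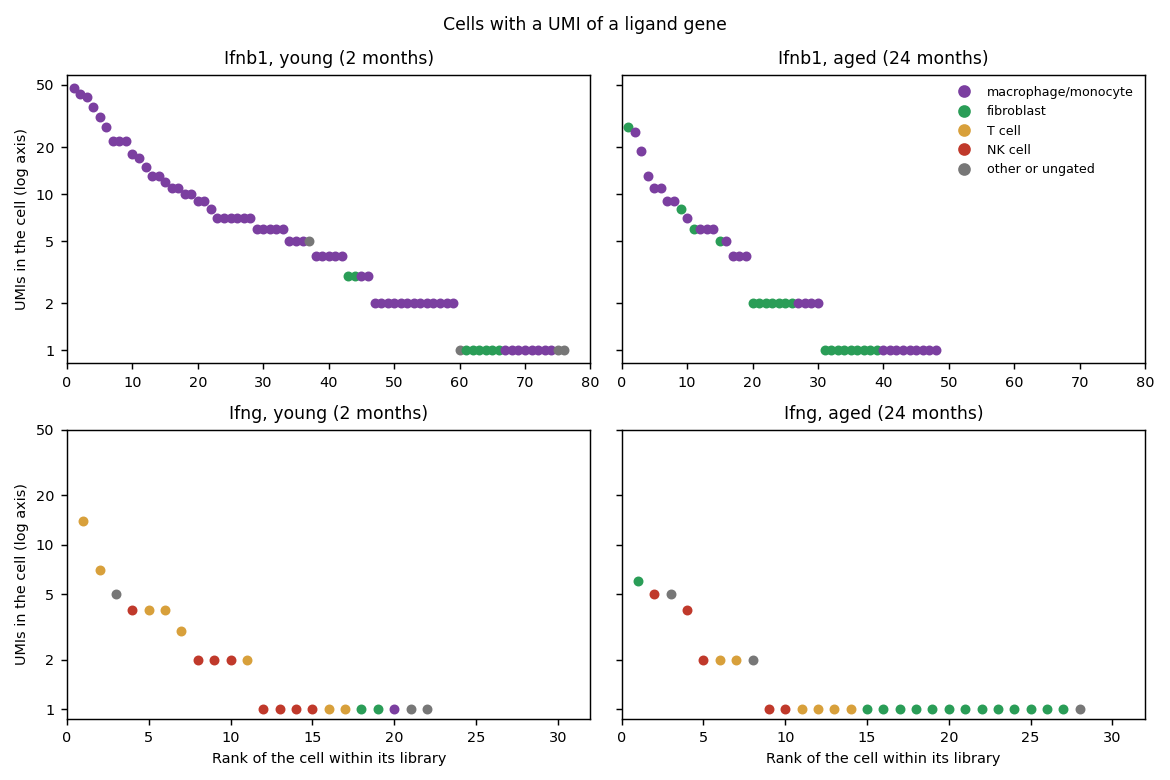
UMIs per cell (log axis) of every cell with an Ifnb1 UMI (top) or an Ifng UMI (bottom), ordered from highest to lowest within the young (left) and aged (right) library and coloured by gated class. Young Ifnb1 cells are mostly macrophage/monocyte-like and reach 48 UMIs, whereas Ifng cells stay at 14 UMIs or fewer.

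Within the macrophage/monocyte-like cells, Ifnb1 followed a subset. Leiden clusters were built without the ligands, receptors and sensors followed here and without the gene lists used below. Their Ifnb1 levels were therefore not used to form them, and are given as a description. Genes outside the lists that were also higher in cells with Ifnb1, such as Cxcl10, were not left out. Cluster 1, led by Cbr2, Cd163, Ccl8, Fcna, Oasl1 and Folr2, genes that include markers of resident tissue macrophages, was the main holder. Its gated macrophage/monocyte-like cells held 68.9% of the young library's Ifnb1 UMIs and 55.6% of the aged library's. In them, 40 of 134 young cells carried 425 UMIs, or 162 CPM (147 to 178), and 18 of 254 aged cells carried 125 UMIs, or 27.4 CPM (22.8 to 32.7). Oasl1 is itself an interferon-induced gene. Cluster 2, led by Ms4a7, C1qa and Pf4 beside immunoglobulin kappa genes, had 34.6 CPM young and 2.22 CPM aged in its gated cells. Cluster 13, with MHC class II genes and the monocyte gene Ly6c2, had 20.1 and 6.15 CPM. Cluster 7, led by Mmp12 and Il1a, held 0 young and 1 aged Ifnb1 UMI over 193 and 141 gated cells. Cluster 18, with Arg1, held none over 162 and 313. Cluster 25, led by Atp6v0d2 and Acp5, held 2 UMIs over 25 young and 6 UMIs over 13 aged gated cells. Its levels were 2.10 CPM young (0.255 to 7.59) and 19.4 CPM aged (7.12 to 42.2). Ifnb1 was lower in the aged library in each of the 3 macrophage/monocyte clusters that held 10 or more UMIs in both libraries. Clusters 7 and 25 held fewer UMIs, and the young and aged intervals overlapped in both. In cluster 7 they were 0 to 0.944 CPM young and 0.0111 to 2.45 CPM aged, so its 1 aged UMI gives no direction.

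Fibroblast-like cells held the remaining Ifnb1 of the aged library and 12 of the 20 remaining UMIs of the young library, in the opposite order to macrophage/monocyte-like cells. They carried these 12 UMIs in 8 of 1594 young cells, or 0.168 CPM (0.0870 to 0.294), and 69 UMIs in 20 of 1487 aged cells, or 0.888 CPM (0.691 to 1.12). The aged/young ratio was 5.28 (2.84 to 10.7). A single aged cell held 27 of the 69 UMIs. The clustering placed 2 of the 20 cells, holding 35 of the 69 UMIs, among macrophages, so that 34 UMIs in 18 aged cells remained in fibroblast clusters. Cells with any C1qa, C1qb, C1qc or Ptprc UMI, which are macrophage and leukocyte genes, made up part of the class, and C1q UMIs were present in 13.2% of young and 15.4% of aged fibroblast-like cells. Without them 10 young and 31 aged UMIs remained, in 6 and 16 cells, at 0.182 and 0.521 CPM, with a ratio of 2.86 (1.36 to 6.53). Of the aged Ifnb1 UMIs, 22 lay in 12 cells of cluster 5, fibroblasts led by genes that include Akr1c18 and Pi16. After thinning, 0 of 1555 young and 0 of 1455 aged fibroblast-like cells kept an Ifnb1 UMI, and the young neutrophil-like level was 0.535 CPM. Of those 6 neutrophil-like UMIs, 5 came from 1 cell that the clustering placed among macrophages. Over the 1309 young neutrophil-like cells in neutrophil clusters 1 UMI remained, at 0.0980 CPM (0.00248 to 0.546). That interval includes the fibroblast-like levels of 0.168, 0.182 and 0.521 CPM, but not the 0.888 CPM of all aged fibroblast-like cells. The part of stray RNA in the fibroblast values was not tested.

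Cells with Ifnb1 also carried the genes that type I interferon induces. In young macrophage/monocyte-like cells Rsad2, which encodes the antiviral enzyme viperin, was at 3428 CPM in the 64 cells with an Ifnb1 UMI and at 112 CPM in the 855 without, 30.5-fold higher. In aged cells it was at 3057 and 136 CPM, 22.5-fold higher. Ifit1, whose protein binds viral RNA, was 30.9-fold higher in young and 38.6-fold higher in aged cells with Ifnb1. The RNA sensor gene Ifih1 was 9.47-fold and 12.1-fold higher and the oligoadenylate synthetase-like gene Oasl1 8.54-fold and 15.1-fold. All 15 listed targets of type I interferon were higher by 1.5-fold or more in both libraries, whereas over all genes with 20 or more UMIs 14.3% were higher in young and 14.5% in aged cells. The median log2 difference of the 15 was 3.07 in young and 3.003 in aged cells, against -0.14 and -0.22 over all genes. These splits were chosen after earlier results were seen, compare cells of the same library and carry no test.

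**Figure D2:**
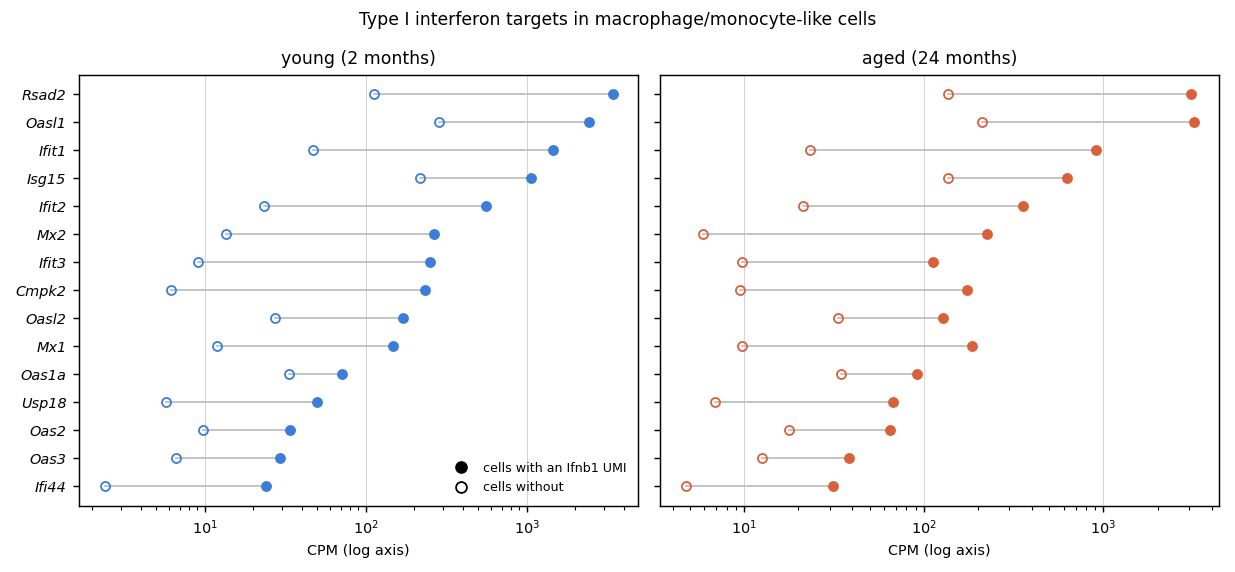
CPM (log axis) of the 15 listed type I interferon targets in macrophage/monocyte-like cells with an Ifnb1 UMI (filled) and without one (open), in the young (left) and aged (right) library. For each of the 15 genes the filled point lies to the right of the open point in both panels.

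Among the sensing genes the same cells carried more of several RNA and DNA sensors. Of 11 nucleic acid sensor genes, 10 in young and 7 in aged cells were 1.5-fold or more higher in cells with Ifnb1. They include Rigi, a sensor of viral RNA, at 66.6 against 21.7 CPM young and 93.8 against 27.3 CPM aged, and Ifi204, a DNA sensor of the interferon-inducible p200 family, at 581 against 209 and 532 against 199 CPM. Cgas was at 19.5 against 8.67 CPM in young cells (2.26-fold, 1.37 to 3.55) and at 21.6 against 11.3 CPM in aged cells (1.92-fold, 0.866 to 3.72). Sting1 was 1.64-fold higher young (1.06 to 2.45) and 1.62-fold aged (0.801 to 2.94). Over the whole class, receptor transcripts were lower in cells with Ifnb1. Ifngr1 was at 64.0 against 118 CPM young (0.540-fold) and at 55.3 against 141 CPM aged (0.391-fold), and Ifnar1 was 0.666-fold and 0.579-fold. Ifnar2 was 0.781-fold and 0.700-fold and Ifngr2 0.707-fold and 0.804-fold, short of 1.5-fold, and the aged Ifngr2 interval (0.591 to 1.07) included 1. In all, 2 of 6 members other than the ligands were higher and 2 lower by 1.5-fold in each library. Of all genes 14.3% were higher and 31.2% lower in young cells, and 14.5% and 37.3% in aged cells, so the share of members lower was near that of all genes.

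The contrast was smaller within a cluster. In cluster 1, with 40 cells with and 94 without an Ifnb1 UMI in the young library and 18 and 236 in the aged, 14 of 15 type I targets were higher young, where 7.55% of all genes were higher and 19.6% lower, and 15 of 15 aged, where 10.5% were higher and 31.5% lower. Rsad2 was 7.84-fold higher young (7.31 to 8.41) and 7.16-fold aged (6.64 to 7.72). Of the nucleic acid sensor genes, 3 of 9 were higher and 1 lower young, and 4 of 11 were higher and none lower aged, against the same shares of all genes. Sting1 was 1.17-fold young (0.670 to 1.98) and 1.22-fold aged (0.570 to 2.33), so no difference was detectable there. Of the 6 receptor and sensor members in cluster 1, 1 was higher and none lower young, and none was higher and 1 lower aged. The lower receptor levels of the whole class were thus mostly not seen at 1.5-fold within this cluster. In the 16 aged fibroblast-like cells with Ifnb1 but no C1q or Ptprc UMI, 13 of 15 type I targets were higher than in the 1185 others and none lower, where 12.3% of all genes were higher and 37.8% lower. Ifit1 was at 949 against 307 CPM in them. In the 6 such young cells 3 of 15 were higher and 8 lower, against 13.3% and 46.3% of all genes.

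Ifng was carried by far fewer transcripts, 60 UMIs young and 48 aged. NK cell-like cells had the highest level. The young library held 14 UMIs in 8 of 19 NK cell-like cells, 73.2 CPM (40.0 to 123), and the aged library 13 UMIs in 5 of 12, 74.7 CPM (39.8 to 128). T cell-like cells held 36 UMIs in 8 of 320 young cells, 13.5 CPM (9.46 to 18.7), and 8 UMIs in 6 of 32 aged cells, 24.6 CPM (10.6 to 48.4). After thinning, 3 of 19 young and 3 of 12 aged NK cell-like cells, 7 of 316 young and 1 of 32 aged T cell-like cells kept an Ifng UMI, and none of 901 young and 1235 aged macrophage/monocyte-like cells did. The intervals of the young and aged CPM overlapped in both lymphocyte classes. A single young T cell-like cell held 14 of the 36 UMIs. Unthinned, 2.50% of young and 18.8% of aged T cell-like cells had an Ifng UMI, at median depths of 7389 and 7274 UMIs. Thinned, the shares were 2.22% (0.895 to 4.51) and 3.125% (0.0791 to 16.2). A difference between ages was not tested.

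Among T cell-like cells the Ifng UMIs were not spread evenly. Cells with Trac but no Trdc UMI, the receptor constant genes of αβ and γδ T cells, held 19 UMIs in 5 of 91 young cells, 23.4 CPM, and 8 UMIs in 6 of 26 aged cells, 27.7 CPM. The 140 young cells with Trdc but no Trac held none, which allows up to 2.89 CPM. Cluster 17, led by Ctla4, Gzma and Ms4a4b, held 52 of the 60 young and 32 of the 48 aged Ifng UMIs. Cluster 3, led by Trdv4, Il17a and Trdc, held 0 over 225 young and 5 aged cells. Tbx21, the gene of the transcription factor T-bet that drives Ifng, ran at 199 CPM young and 138 CPM aged in NK cell-like cells and at 7.50 and 49.2 CPM in T cell-like cells.

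Fibroblast-like cells of the aged library held 19 Ifng UMIs, 39.6% of the library's, in 14 of 1487 cells, against 2 UMIs in 2 of 1594 young cells. The levels were 0.245 and 0.0281 CPM, a ratio of 8.72 with an interval from 2.10 to 77.2. With classes from clusters in place of the gate the ratio was 5.95. Of the 14 cells, 13 had 1 UMI each, and the other had 6. T or NK cell marker UMIs were present in 4 of the 14, and in 12.2% of all aged fibroblast-like cells. Without cells with a C1q or Ptprc UMI, 6 aged UMIs in 6 cells and no young UMI remained. The median depth of the 14 cells, 61121 UMIs, was above the 49630 of the other aged fibroblast-like cells. Thinned, 1 of 1555 young and 1 of 1455 aged cells kept an Ifng UMI. The part of free RNA and of mixed droplets in these values was not tested.

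**Figure D3:**
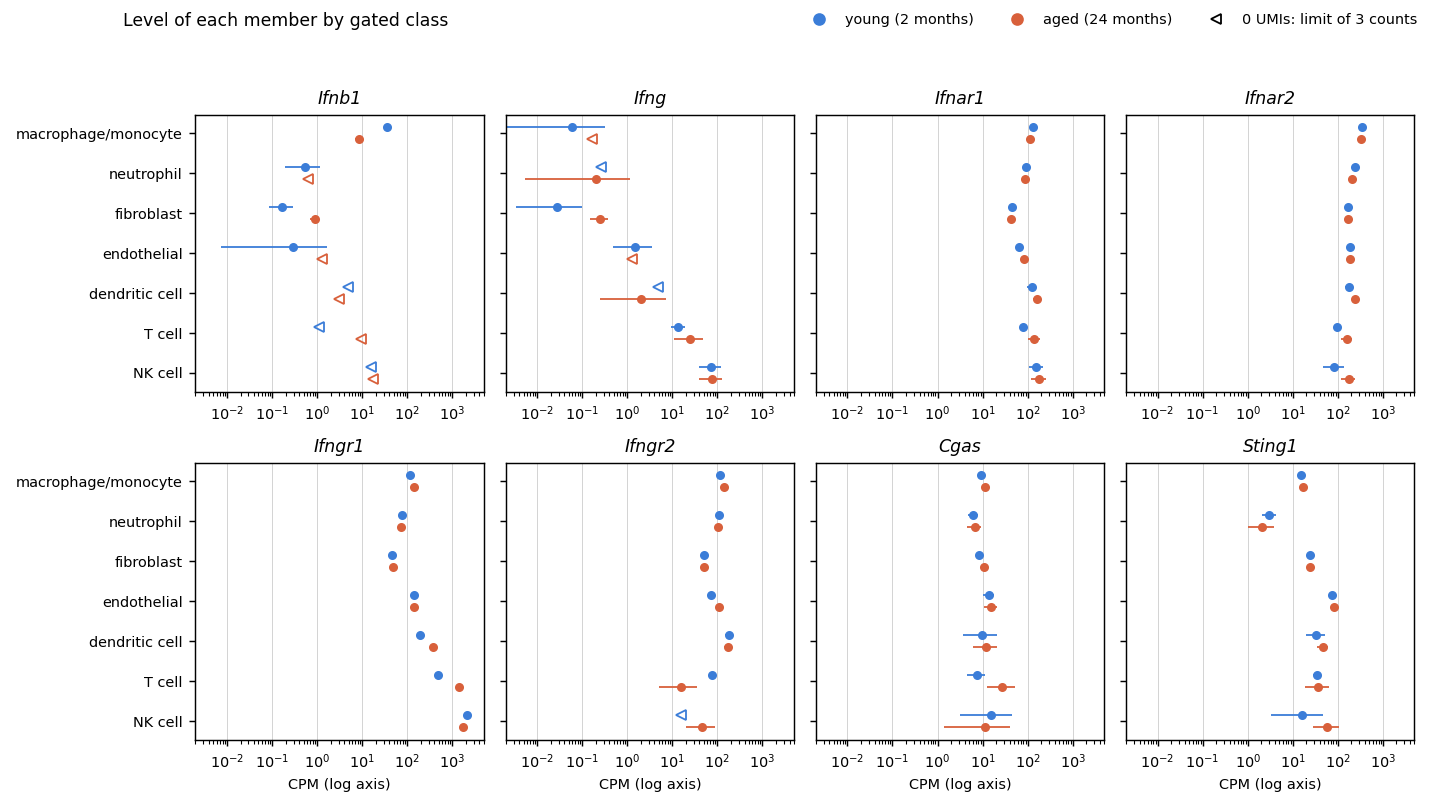
CPM (log axis) of the 8 genes in 7 gated classes of the young (blue) and aged (orange) library, with 95% Poisson intervals as bars (1 is cut at the left edge) and open triangles at the limit a count of 0 allows. Ifnb1 peaks in macrophage/monocyte-like cells and Ifng in NK cell-like cells, while receptor chains are present in every class except Ifngr2 in young NK cell-like cells.

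The other interferon genes were near 0. The Ifna genes and Ifnab, 14 genes together, had 5 UMIs over both libraries, and 12 of the 14 had none. Ifnab had 2 young and 2 aged UMIs, and Ifna7 had 1 young UMI. Ifnk, the keratinocyte interferon kappa, had 11 young and 6 aged UMIs, Ifne 0 and 4, and Ifnz 1 and 8. The interferon lambda genes Ifnl2 and Ifnl3 had none. Ifnlr1, the ligand-binding chain of the interferon lambda receptor, was found mostly in neutrophil-like cells, with 170 UMIs in 127 of 1350 young cells (15.2 CPM, 13.0 to 17.6) and 55 UMIs in 48 of 886 aged cells (11.4 CPM, 8.58 to 14.8). This class held 90.9% of the young and 79.7% of the aged Ifnlr1 UMIs. Its partner Il10rb was at 239 and 293 CPM in the same class (ratio 1.23, 1.15 to 1.31).

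Transcripts of both type I receptor chains were found in all 7 classes, with more of Ifnar2 than of Ifnar1 in each class except NK cell-like cells, which had 30 Ifnar1 and 16 Ifnar2 UMIs young and 31 and 30 aged. In macrophage/monocyte-like cells Ifnar2 stood at 335 CPM in both libraries (327 to 344 young, 326 to 343 aged), the highest level of the 7 classes. Neutrophil-like cells had 235 and 209 CPM, second in the young library, and dendritic cell-like cells 174 and 235, second in the aged library. Endothelial-like cells had 191 and 187 and fibroblast-like cells 166 and 170. T cell-like cells had 94.9 and 157 CPM, and NK cell-like cells 83.7 and 172. The intervals of the young endothelial-like and dendritic cell-like cells overlapped, as did those of the young T cell-like and NK cell-like cells. Ifnar1 was at 157 and 178 CPM in NK cell-like cells, at 125 and 158 in dendritic cell-like cells, at 132 and 115 in macrophage/monocyte-like cells and at 78.4 and 138 in T cell-like cells. The intervals of the first 3 classes overlapped in the young library, and that of aged T cell-like cells (101 to 185) overlapped those of the other 3 aged classes. Fibroblast-like cells had the lowest, 44.1 and 42.0 CPM.

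The balance of the chains differed between classes. Each UMI of this 3′ assay counts 1 transcript whatever its length, but capture may differ between genes, so the share is compared between classes and not read as a protein ratio. Ifnar2 made up 71.8% (70.8 to 72.8) of the type I receptor UMIs in young macrophage/monocyte-like cells, 79.0% (78.3 to 79.6) in young fibroblast-like cells and 54.8% (50.1 to 59.4) in young T cell-like cells. In the aged library the shares were 74.4%, 80.2% and 53.1%. Thinned to 2000 UMIs, 9.21% of young (7.40 to 11.3) and 9.31% of aged (7.75 to 11.1) macrophage/monocyte-like cells had UMIs of both chains. In neutrophil-like cells it was 5.79% and 4.97%, and in fibroblast-like cells 2.32% and 2.20%. Unthinned, 73.3% of young and 61.3% of aged macrophage/monocyte-like cells had both.

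The interferon gamma receptor chains were uneven across classes: lymphocytes had the most Ifngr1 and the least Ifngr2 for it. NK cell-like cells had 2139 CPM of Ifngr1 young (1937 to 2357) and 1731 aged (1541 to 1938). T cell-like cells had 486 (460 to 513) and 1383 CPM (1258 to 1517), and dendritic cell-like cells 197 and 375. Endothelial-like cells had 141 and 139 CPM, macrophage/monocyte-like cells 115 and 139, neutrophil-like cells 77.9 and 72.9, and fibroblast-like cells 45.8 and 47.7. The NK cell-like levels rest on 409 and 301 UMIs, and the young interval began at 1937 CPM, just inside the aged one. Endothelial-like and macrophage/monocyte-like cells did not differ beyond counting error in the aged library.

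Ifngr2 was ordered differently. It was highest in dendritic cell-like cells, at 177 CPM young and 168 aged, followed by macrophage/monocyte-like cells at 116 and 143, neutrophil-like cells at 111 and 104, endothelial-like cells at 71.0 and 109 and fibroblast-like cells at 49.4 and 50.8. T cell-like cells had 77.3 CPM young (67.1 to 88.6) and 15.4 CPM aged (4.99 to 35.9), the latter from 5 UMIs in 12.5% of 32 cells. In young NK cell-like cells it was 0, which allows up to 15.7 CPM, and in aged ones 8 UMIs came from 1 cell. Ifngr2 made up 50.2% of the receptor's UMIs in young macrophage/monocyte-like cells and 50.6% in aged ones, 51.9% and 51.6% in fibroblast-like cells and 58.7% in neutrophil-like cells of both libraries. In T cell-like cells it made up 13.7% young (12.0 to 15.6) and 1.10% aged (0.358 to 2.55), and in NK cell-like cells 0% (up to 0.898) and 2.59% (1.12 to 5.04).

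**Figure D4:**
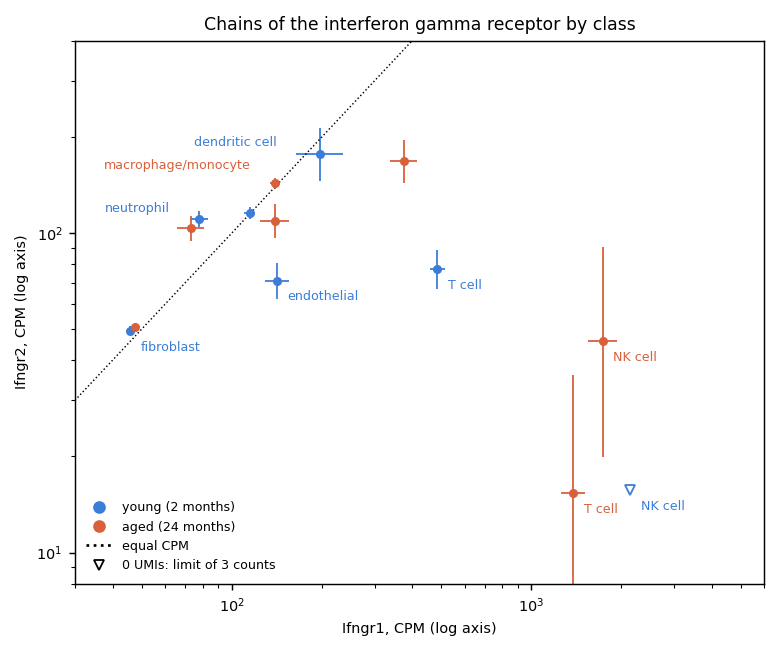
CPM of Ifngr2 against Ifngr1 (both log axes) in 7 gated classes of the young (blue) and aged (orange) library, with 95% Poisson intervals (that of aged T cell-like cells is cut at the lower edge), an open triangle at the limit a count of 0 allows and a dotted line of equal levels. Fibroblast-like, macrophage/monocyte-like and neutrophil-like cells lie close to the line, while T cell-like and NK cell-like cells lie far to its right.

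The T cell-like values differed with the kind of T cell. In the young library Ifngr1 was at 895 CPM (831 to 962) in cells with Trac and no Trdc and at 260 CPM (230 to 293) in cells with Trdc and no Trac, while Ifngr2 was at 53.1 CPM (38.4 to 71.5) and 108 CPM (88.7 to 130). In the aged library 26 of the 32 T cell-like cells had Trac and no Trdc, with Ifngr1 at 1300 CPM (1172 to 1438) and Ifngr2 at 13.8 CPM (3.77 to 35.4). Within the αβ cells, Ifngr1 was therefore higher and Ifngr2 lower in the aged library, beyond counting error for both, though the aged Ifngr2 level rests on 4 UMIs. No ratio is given for classes with under 50 cells in a library.

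Receptor levels also varied among neutrophil-like clusters. Ifngr1 was at 119 CPM young (109 to 130) and 165 CPM aged (124 to 216) in cluster 0, led by Retnlg, Cxcr2 and S100a8. It was at 29.9 CPM (24.9 to 35.7) and 31.3 CPM (23.2 to 41.3) in cluster 8, led by Il23a, Tnf, Ccrl2 and Ccl3. Ifngr2 differed less between them, at 111 and 104 CPM young and 156 and 127 CPM aged. Among macrophage/monocyte-like clusters, Ifngr1 was highest in cluster 18, with Arg1, at 193 CPM young (179 to 209) and 212 CPM aged (199 to 226). In cluster 1, which held most of the Ifnb1, it was at 72.1 and 93.4 CPM, and in cluster 7 at 75.6 and 85.7.

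Thinned to 2000 UMIs, UMIs of both interferon gamma receptor chains were found in 5.11% of young (3.76 to 6.75) and 4.70% of aged (3.59 to 6.03) macrophage/monocyte-like cells, in 3.21% and 2.06% of neutrophil-like cells and in 0.643% and 0.962% of fibroblast-like cells. In dendritic cell-like cells 1 of 31 young and 8 of 61 aged cells had both. In T cell-like cells 12 of 316 young and 0 of 32 aged cells had both, although 131 and 25 of them had an Ifngr1 UMI. In NK cell-like cells it was 0 of 19 and 1 of 12, with Ifngr1 in 18 and 11. Unthinned, 55.2% of young and 51.8% of aged macrophage/monocyte-like cells had both chains.

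Sting1 and Cgas differed in where they were found. Sting1 was highest in endothelial-like cells, at 75.8 CPM young (66.8 to 85.7) and 81.3 CPM aged (70.3 to 93.6). T cell-like cells had 34.5 and 36.9 CPM, dendritic cell-like cells 32.8 and 46.0, fibroblast-like cells 24.2 and 23.7 and macrophage/monocyte-like cells 15.2 and 16.5. Neutrophil-like cells had the lowest level of the 7 classes, 3.03 CPM (2.10 to 4.23) young and 2.07 CPM (0.993 to 3.81) aged, from 34 and 10 UMIs. Among macrophage/monocyte-like clusters Sting1 was highest in cluster 1, at 26.2 CPM (20.6 to 32.9) and 28.8 CPM (24.3 to 33.9), and lowest in cluster 7, at 5.24 and 2.48.

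Cgas was low in every class. It lay between 6.24 CPM in young neutrophil-like cells and 27.7 CPM in aged T cell-like cells, the latter from 32 cells with an interval from 12.6 to 52.5. Macrophage/monocyte-like cells had 9.38 and 11.5 CPM, fibroblast-like cells 8.26 and 10.5 and endothelial-like cells 13.7 and 15.1. Among fibroblast clusters, the aged level of 14.6 CPM (12.9 to 16.4) in cluster 5 was above the young 7.70 (6.40 to 9.19), whereas in cluster 19, led by the cell cycle genes Ube2c, Anln and Top2a, the intervals overlapped (12.1 to 18.3 young, 12.0 to 16.2 aged). Thinned, UMIs of both Cgas and Sting1 were in at most 2 cells of any large class, so the pair cannot be followed cell by cell at this depth.

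Between ages, most receptor and sensor levels lay within 1.5-fold. Over all cells the aged/young ratio was 0.377 for Ifnb1 (0.322 to 0.440), the only one of 8 members past 1.5-fold in either direction, where 10.5% of all genes were lower and 11% higher. It was 0.827 for Ifng (0.554 to 1.23), 0.926 for Ifnar1, 1.02 for Ifnar2, 0.998 for Ifngr1, 1.06 for Ifngr2, 1.04 for Sting1 and 1.29 for Cgas (1.18 to 1.41). In macrophage/monocyte-like cells 1 of 7 members with 20 or more UMIs, Ifnb1, was lower, where 6.23% of all genes were, and none was higher, where 19.6% were. Ifngr1 had a ratio of 1.21 (1.15 to 1.29), Ifngr2 1.23 (1.16 to 1.31) and Ifnar1 0.874 (0.823 to 0.927). Scaling by TMM lowered every ratio of that class by 0.21 on the log2 scale and brought these to 1.05, 1.07 and 0.754. In neutrophil-like cells none of 6 members passed 1.5-fold, where 19.3% of all genes were higher and 15.4% lower, and the ratios lay between 0.683 for Sting1 and 1.06 for Cgas.

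In fibroblast-like cells 2 of 8 members were higher, the ligands Ifnb1 and Ifng described above, and none lower, where 11.7% of all genes were higher and 8.19% lower. Cgas had a ratio of 1.27 (1.15 to 1.42), and the 4 receptor chains and Sting1 lay between 0.952 and 1.04. In endothelial-like cells 1 of 6 members was higher, Ifngr2, at 71.0 CPM young (62.3 to 80.7) and 109 CPM aged (96.5 to 123), where 12% of all genes were higher and 11.4% lower. Its ratio of 1.54 (1.29 to 1.84) was 1.43 with TMM scaling, 1.39 with classes from clusters and 1.23 as a mean over cells. Ifnar1 was 1.31 in that class (1.08 to 1.60), but 0.956 as a mean over cells.

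**Figure D5:**
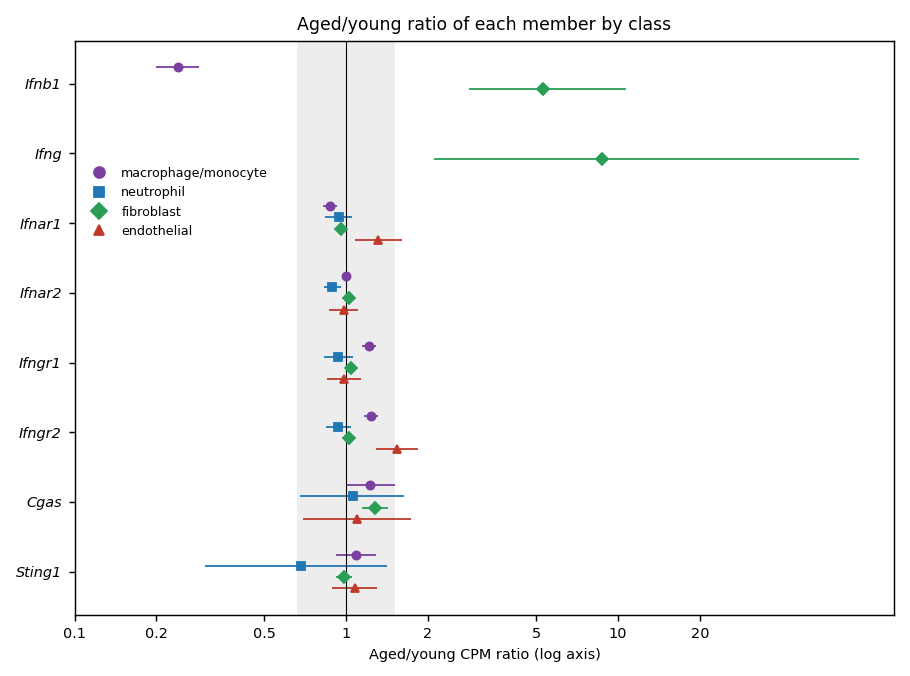
Aged/young CPM ratio (log axis) of each member in the 4 classes with at least 50 cells in both libraries, with 95% counting intervals, for members with 20 or more UMIs and none at 0. The shaded band marks ratios within 1.5-fold; the Ifnb1 points of macrophage/monocyte-like and fibroblast-like cells lie on opposite sides of it.

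The genes that relay the signal were close between libraries in macrophage/monocyte-like and fibroblast-like cells. None of the 6 receptor kinase and STAT genes passed 1.5-fold in either class, with medians of 0.24 and 0.19 on the log2 scale against 0.13 and 0.03 over all genes. Jak1, the kinase that both receptors use, was at 300 and 348 CPM in macrophage/monocyte-like cells. Of all genes, 6.23% were lower and 19.6% higher in macrophage/monocyte-like cells, and 8.19% lower and 11.7% higher in fibroblast-like cells. Of 9 feedback genes, 2 were lower and 1 higher in macrophage/monocyte-like cells. Isg15 and the JAK inhibitor gene Socs1 were lower, at ratios of 0.537 and 0.602, and Pias1 was higher, at 76.0 and 114 CPM. In fibroblast-like cells 2 of the 9 were higher, Isg15 at a ratio of 2.27 and Usp18 at 2.67. The other gene past 1.5-fold there, Ptpn6, was lower, at 0.661. Isg15 thus went in opposite directions in these classes.

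The direction of the target genes differed between classes. In macrophage/monocyte-like cells 9 of 15 type I targets were lower and 2 higher, with a median log2 ratio of -0.53, where 6.23% of all genes were lower and 19.6% higher. Ifit1 was at 140 CPM young and 43.1 aged (0.308-fold, 0.284 to 0.334), and Mx2 at 30.1 and 10.7, while Oas2 was at 11.3 and 18.8. In fibroblast-like cells 14 of 15 were higher and none lower, with a median of 0.92, where 11.7% of all genes were higher and 8.19% lower. Cmpk2 was at 1.70 and 7.65 CPM there, a ratio of 4.51 (3.70 to 5.52). In neutrophil-like cells 4 of 12 were lower and 1 higher, where 15.4% of all genes were lower and 19.3% higher. In endothelial-like cells 4 of 13 were lower and none higher, where 11.4% of all genes were lower and 12% higher. Of the interferon gamma targets, 11 of 14 were higher in fibroblast-like cells, while 5 of 14 in macrophage/monocyte-like cells and 6 of 11 in neutrophil-like cells were lower. Cxcl9, a chemokine for activated T cells, was at 7.16 and 1.45 CPM in macrophage/monocyte-like cells. Igtp and Gbp2, interferon-induced GTPases, had ratios of 0.335 and 0.517 in neutrophil-like cells.

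The sensors upstream of Ifnb1 and the cytokines upstream of Ifng were read in the same way. Of 11 nucleic acid sensors, 1 was lower in macrophage/monocyte-like cells, a share near the 6.23% of all genes, and none was higher, where 19.6% of all genes were. It was Ifih1, at 322 and 174 CPM (0.541, 0.518 to 0.565). In fibroblast-like cells 5 of 10 were higher and none lower, where 11.7% of all genes were higher and 8.19% lower, with Ifih1 at 34.1 and 73.9 CPM (2.17, 2.07 to 2.27). In the STING relay list, Irf7, the factor that amplifies type I interferon, was at 33.5 and 63.3 CPM in fibroblast-like cells, and Enpp1, which degrades the cyclic dinucleotide, was 1.82-fold higher there and 1.63-fold higher in macrophage/monocyte-like cells. Il12a, a subunit of interleukin 12, which drives Ifng, was at 3.52 and 0.430 CPM in macrophage/monocyte-like cells, or 0.122-fold (0.0504 to 0.256), and at 28.0 and 15.9 CPM in neutrophil-like cells. The other subunit, Il12b, was found at 32.8 and 26.0 CPM in dendritic cell-like cells, which held 20 and 26 UMIs. Il15, which sustains NK and T cells, was at 131 and 330 CPM in neutrophil-like cells, a ratio of 2.53 (2.35 to 2.72), and 1.77-fold higher in macrophage/monocyte-like cells.

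For each member the genes of most similar pattern were sought by Pearson correlation of log2(CPM + 5) over the 10 pairs of class and library with at least 50 cells. These points share libraries and differ in depth, and the values are descriptions. Ifng was closest to Klrc3 (r = 0.997), a value that rests on 1 point: it was at 13.5 CPM in young T cell-like cells and at 2.00 CPM or less at the other 9, and no NK cell-like point was among them. Ifnar1 was closest to Malt1 (0.978), a signalling protein of lymphocytes, and had Ifngr2 among its 5 closest (0.962), and Ifngr2 was closest to Ggta1 (0.975). Ifnar2 was closest to the feedback gene Socs3 (0.971), Ifngr1 to Madd (0.992) and Sting1 to Smc1a (0.988). Cgas was closest to Spred3 (0.970), with Stat2 at 0.969. Ifnb1 was closest to Tmem266 (0.996), a value that rests on the macrophage/monocyte-like points. It was at 35.0 and 8.38 CPM there and at 0.888 CPM or less at the others.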

How the data were processed

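The deposited values are raw counts of UMIs per gene and barcode, and per the file headers the authors used Cell Ranger 8.0.1. STAR, Seurat 4, the build GRCm38/mm10 and a different version of the counting tool, Cell Ranger 9.0, appear in the submitters' processing notes. Cells with at least 500 UMIs, 200 genes and under 15% mitochondrial UMIs were kept. Each was gated by 17 marker lists: a score over its highest-expressed markers, at least 3 detected, a score of at least 0.15 and a lead of 0.05. No doublets were removed; leaving out the top 4% of scrublet scores was an alternative. UMIs were summed per class and library and scaled to CPM. Levels carry exact Poisson intervals, shares Clopper-Pearson intervals and ratios conditional binomial intervals, at 95%. The limit beside a 0 is 3 counts of the class. Genes were counted as higher or lower from 1.5-fold, for genes with at least 20 UMIs. Medians of lists used log2 ratios with 5 CPM added.

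Clusters came from scanpy 1.11.5 under Python 3.11.15 (2000 variable genes without the members and lists, 30 components, 15 neighbours, Leiden resolution 1). TMM factors came from edgeR 4.0.16 under R 4.3.3. The ratio code was tested on simulated data. All members are named, with, in each list and class described, the 2 highest and 2 lowest ratios among genes with at least 50 UMIs, of which some are printed, and the 5 genes of most similar pattern. Other genes, the T cell subsets, the cluster values and the splits by Ifnb1 UMIs were chosen after values were seen. The members and lists were chosen with earlier results of these data known. Cells without a class enter only the clusters and the values over all cells. Pools of animals were not separated. Results for 1 withheld item are not reported here.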

Additional observations from a re-analysis of the deposited data

Results flagged for a closer look

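The Ifnb1 ratios were noted because the contrast of aged against young pointed in opposite directions in macrophage/monocyte-like cells, at 0.239, and in fibroblast-like cells, at 5.28. The type I interferon targets did the same, with median log2 ratios of -0.53 in macrophage/monocyte-like and 0.92 in fibroblast-like cells. The interferon gamma targets had medians of -0.36 in neutrophil-like and 0.75 in fibroblast-like cells. With 1 library per age these differences between classes were not tested.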

How the results depend on the processing

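No paired analysis was possible because each age had 1 library. With classes from clusters the Ifnb1 ratio was 0.316 in macrophage/monocyte-like and 2.60 in fibroblast-like cells, and the Ifng ratio in fibroblast-like cells was 5.95. Further alternatives were chosen after seeing the data: without the 10 cells with the most Ifnb1 UMIs in each library the macrophage/monocyte-like ratio was 0.128, in its gated cells of cluster 1 it was 0.169, over all cells of cluster 1, some gated as fibroblast-like, 0.217, and without cells with a C1q or Ptprc UMI the fibroblast-like ratio was 2.86. It was 3.47 without the top doublet scores. For Ifng in fibroblast-like cells, leaving out cells with a C1q or Ptprc UMI left no young UMI and no ratio. TMM scaling shifted all ratios by -0.11 (log2) over all cells, -0.21 in macrophage/monocyte-like, -0.18 in neutrophil-like, -0.09 in fibroblast-like and -0.10 in endothelial-like cells. Over all cells it gave 0.856 for Ifnar1, 0.942 for Ifnar2, 0.923 for Ifngr1, 0.978 for Ifngr2 and 0.963 for Sting1. Means of per-cell CPM gave 0.984 for Ifnar1, 1.08 for Ifnar2, 1.11 for Ifngr2, 0.942 for Sting1 and 0.4997 for Ifng. The cause of these moves was not tested, beyond the shift that scaling makes by construction. Of 173 alternative ratios of members, 18 fell on the other side of 1, all with main ratios between 0.980 and 1.31, and none of Ifnb1 or Ifng. Shares of macrophage/monocyte-like cells with both chains depend on depth by construction. Thinned to 1000 UMIs they were 3.52% young and 3.63% aged for Ifnar1 with Ifnar2, and 1.21% and 1.26% for Ifngr1 with Ifngr2. Not thinned, they were 73.3% and 61.3%, and 55.2% and 51.8%. Cells of few UMIs, such as neutrophil-like and T cell-like cells, limit what can be seen of rare transcripts.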
